A study of Mus musculus with 6 samples.

Results

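The genes examined here are 10 contractile and actin genes that are textbook targets of serum response factor, Srf itself included. They were taken from the table by gene symbol: Acta2, Tagln, Cnn1, Cnn2, Myl9, Tpm1, Tpm2, Actg1, Srf and Vcl. All 10 were found among the 13283 genes of the deposited table, and all 10 passed the filter on low values that left 12507 genes for testing.

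The cells were an immortalized line of mouse brown preadipocytes (BAT cells) that stably express Cas9, differentiated in culture. Of the 6 cultures, 3 were MICT1 KO, made as pools of cells with CRISPR guides against the microprotein gene MICT1, and 3 were control cells (Scr) that carried scrambled sgRNA and that the labels call WT. All 6 received 10 µM forskolin, an activator of adenylyl cyclase that raises cAMP, for 6 h at day 6, so no untreated or undifferentiated culture stands beside them. A pool mixes cells with different edits, the labels do not tell which guide each MICT1 KO library received, and every culture derives from the same line. The level of MICT1 itself was not analysed here.

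Srf is a transcription factor that binds the CArG box, a short element of C bases, a run of A or T bases and G bases. It works with either of 2 kinds of partner. Myocardin-related factors (Mrtfa, Mrtfb) are held in the cytoplasm by monomeric actin and enter the nucleus when actin polymerizes, where they drive cytoskeletal genes, and ternary complex factors (Elk1, Elk3, Elk4) respond to MAP kinase and drive immediate-early genes such as Fos and Egr1. In adipose precursors, loss of actin stress fibers and low Mrtf activity accompany adipocyte differentiation, and Acta2, Tagln and Cnn1 are widely used as markers of smooth muscle and myofibroblasts.

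The promoter is where these genes are thought to share a control element. The windows from 250 bases before to 50 bases after an annotated start were therefore searched (RefSeq, GRCm38.p6). Each member with a window was searched at a single start, while other genes could have several. That start need not be the outer end of the gene's span given below. The matches of Srf and Acta2 and the whole window of Tpm1 lie inside those spans. A window was found for 9 of the 10 genes, all but Tagln. An exact CArG box was present in 5 of the 9, namely Srf, Actg1, Cnn2, Myl9 and Vcl, against 1.63% of 32851 promoter windows. With 1 mismatch allowed in the A/T run, 6 of the 9 had a match, against 9.98% of all windows. Among the 13410 windows of genes in the deposited table the shares were 1.31% for the exact box and 8.71% with 1 mismatch. The members were chosen as textbook targets of Srf, so a high share of CArG boxes among them is not an independent finding. The CArG box reads alike on both strands. The stretches that hold the matches are shown from 5′ to 3′ on the strand of the gene. Capitals mark the CArG box or its form with 1 mismatch. The stretches set the members with a match in the window apart from those without one there.
Srf, chr17:46556195-46556264, minus strand: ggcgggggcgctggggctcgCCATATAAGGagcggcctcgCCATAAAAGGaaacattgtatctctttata
Actg1, chr11:120348556-120348605, minus strand: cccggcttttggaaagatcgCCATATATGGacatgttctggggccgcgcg
Cnn2, chr10:79988524-79988573, plus strand: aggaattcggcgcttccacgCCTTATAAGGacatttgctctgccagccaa
Vcl, chr14:20929151-20929200, plus strand: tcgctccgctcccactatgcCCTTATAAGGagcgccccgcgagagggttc
Myl9, chr2:156775283-156775394, plus strand: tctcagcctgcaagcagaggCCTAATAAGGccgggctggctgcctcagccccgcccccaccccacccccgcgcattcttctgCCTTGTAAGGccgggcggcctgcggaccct
Acta2, chr19:34255378-34255477, minus strand: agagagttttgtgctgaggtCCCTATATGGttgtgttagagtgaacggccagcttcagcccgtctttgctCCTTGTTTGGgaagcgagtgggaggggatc

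Positions are counted from the start searched. Srf carried 2 exact boxes, 82 and 62 bases before that start. Actg1, Cnn2, Myl9 and Vcl carried 1 each, at 90, 56, 161 and 227 bases. Acta2 had no exact box but 2 forms with 1 mismatch, 84 and 34 bases before the start searched. Myl9 had 1 such form beside its exact box. The windows of Cnn1, Tpm1 and Tpm2 held neither form. The MCAT motif (CATTCC on either strand), the element of TEAD factors, was found in Acta2, Tpm1 and Vcl, against 14.7% of all windows and 12.3% of those of genes in the deposited table. A match is a description of the sequence and not a bound site. Genes such as Tpm1 have further starts that were not searched. The spans of Srf, Acta2 and Tpm1, among others, reach upstream of the start searched. Elements outside the windows were not looked for.

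**Figure D1:**
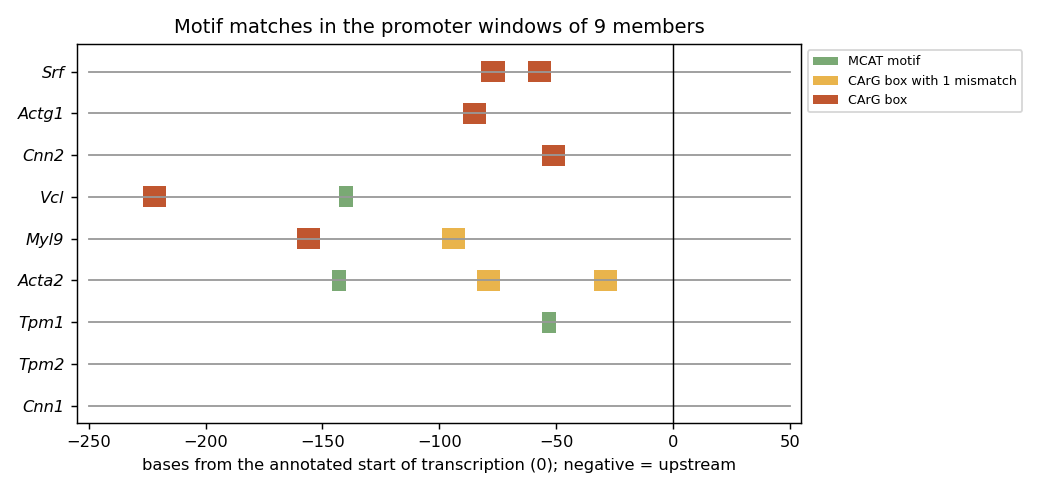
Motif matches in the promoter windows of 9 members; the x axis gives bases from the annotated start of transcription, orange bars are CArG boxes, yellow bars CArG boxes with 1 mismatch and green bars MCAT motifs. Srf holds 2 CArG boxes, 4 other members hold 1, and the lines of Cnn1 and Tpm2 are empty.

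MICT1 KO cells did not shift these genes in a single direction. By limma-trend with Benjamini-Hochberg adjustment over all genes tested, 3 of the 10 members were higher in MICT1 KO cells (Srf, Cnn2 and Actg1) and 4 were lower (Acta2, Vcl, Tpm2 and Tpm1) with an adjusted p under 0.05, while Tagln, Cnn1 and Myl9 did not pass. The difference between the groups is wide in these libraries, and 56.9% of the 12507 genes tested passed the same threshold (28.5% higher and 28.3% lower), so that 7 of 10 is not far from the background. For 8 members no MICT1 KO value fell inside the Scr range, against 62.0% of all genes tested. The median log2 fold change of the members was -0.07, and that of all genes tested -0.01. Only Acta2 among the members changed at least 2-fold with an adjusted p under 0.05, whereas 5.76% of all genes tested were lower and 7.99% higher by that much.

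**Figure D2:**
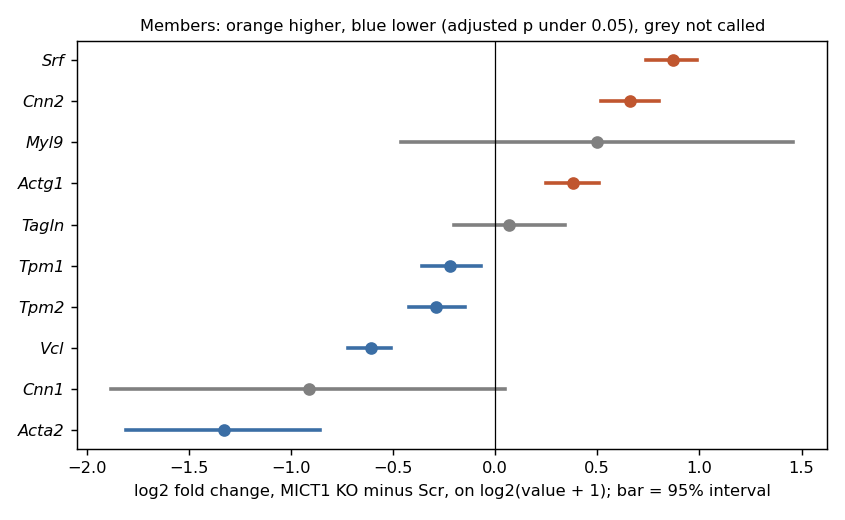
Log2 fold change of each member, MICT1 KO minus Scr, on the log2(value + 1) scale, with its 95% interval from limma-trend; orange and blue mark genes higher and lower with an adjusted p under 0.05, grey the others. Srf stands highest at 0.87 and Acta2 lowest at -1.33, and the intervals of Tagln, Myl9 and Cnn1 include 0.

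Values are given as the authors' normalised signal, which corresponds to estimated reads per gene after scaling of each library. The libraries corresponded to 16104830 to 17925601 such reads in Scr and 15445828 to 17239924 in MICT1 KO. The ribosomal RNA row Rn45s took 1.92% of the signal of Scr replicate 2, and with the libraries scaled to their sums without it 7 members passed the test, 4 lower and 3 higher. Fold changes are on the log2(value + 1) scale, which understates changes of genes with low values. Nothing in the labels says that replicates came from separate differentiations, so the p-values measure the spread between these 6 cultures. In bulk RNA, fewer cells of a type and less RNA per cell cannot be told apart.

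The regulator came first among the members that rose. Srf (chromosome 17, from 46546838 to 46558267, GRCm38) had a normalised signal of 1995, 2296 and 2159 in Scr cells and of 3853, 4052 and 3841 in MICT1 KO cells. The lowest MICT1 KO value was above the highest Scr value by more than the range inside either group. The log2 fold change was 0.87 (standard error, SE, 0.061, limma-trend adjusted p = 1.22e-10), or 1.82-fold, and it ranged from 0.81 to 0.92 when single libraries were left out.

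Cnn2 (chromosome 10, from 79988600 to 79995400), which encodes the calponin of non-muscle cells, an actin-binding protein of stress fibers, rose as well. Its signal was 1384, 1560 and 1455 in Scr cells and 2415, 2143 and 2415 in MICT1 KO cells, with no overlap, and the log2 fold change was 0.66 (SE 0.068, limma-trend adjusted p = 3.95e-08). Actg1 (chromosome 11, from 120345687 to 120348495), the cytoplasmic γ-actin of nearly all cells, was the most abundant member. It went from 45983, 48542 and 44359 in Scr to 64510, 57793 and 58447 in MICT1 KO cells, for a log2 fold change of 0.38 (SE 0.060, limma-trend adjusted p = 1.82e-05). The rise of Actg1 was 1.30-fold, smaller than that of Srf or Cnn2, and its groups did not overlap. Actins have close coding sequences and processed pseudogenes, and how reads shared among them were assigned is not given in the sources used here.

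Among the members that fell, Acta2 moved most. Acta2 (chromosome 19, from 34240336 to 34255585) encodes smooth muscle α-actin, the actin of smooth muscle and myofibroblast stress fibers. Its signal was 109, 123 and 109 in Scr cells and 47.7, 50.6 and 36.3 in MICT1 KO cells. Every MICT1 KO value was below every Scr value by a wide margin, at 35 to 50 reads in MICT1 KO cells against 107 to 133 in Scr cells. The log2 fold change was -1.33 (SE 0.23, limma-trend adjusted p = 4.53e-05), or 2.52-fold lower, and ranged from -1.43 to -1.19 when single libraries were left out.

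Vcl (chromosome 14, from 20929383 to 21033676) encodes vinculin, which ties actin filaments to integrin adhesions and to cadherin junctions. Its signal was 8286, 8667 and 8269 in Scr cells and 5601, 5267 and 5605 in MICT1 KO cells, 2 tight groups far from each other. The log2 fold change was -0.61 (SE 0.052, limma-trend adjusted p = 2.52e-09), or 1.53-fold lower.

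Tpm1 and Tpm2 encode tropomyosins, coiled-coil proteins that lie along the actin filament and set which other proteins reach it. Tpm2 (chromosome 4, from 43513726 to 43523583) had a signal of 1471, 1580 and 1634 in Scr cells and of 1301, 1242 and 1294 in MICT1 KO cells, for a log2 fold change of -0.29 (SE 0.066, limma-trend adjusted p = 9.51e-04). Tpm1 (chromosome 9, from 67022590 to 67049672) had a signal of 2580, 2629 and 2464 in Scr cells and of 2360, 1960 and 2303 in MICT1 KO cells, for a log2 fold change of -0.22 (SE 0.068, limma-trend adjusted p = 0.0103). Neither gene overlapped between the groups, but both changes were small. That of Tpm1 rested in part on MICT1 KO replicate 2, without which it was -0.13 (adjusted p = 0.0860 from limma-trend), and it was -0.20 without control replicate 2 (adjusted p = 0.0516).

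Tagln, Cnn1 and Myl9 did not pass the threshold. Tagln (chromosome 9, from 45929628 to 45936058) encodes transgelin (SM22α), an actin-binding protein used with Acta2 to mark contractile cells. Its signal was 247, 231 and 234 in Scr cells and 237, 234 and 277 in MICT1 KO cells, so that the groups overlapped. The log2 fold change was 0.07, with a 95% interval from -0.20 to 0.34 and an adjusted p of 0.680 from limma-trend, whereas the interval of Acta2 ran from -1.81 to -0.86.

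Cnn1 (chromosome 9, from 22099221 to 22109221), the calponin of smooth muscle, had a signal of 25.7, 31.5 and 22.4 in Scr cells and of 19.1, 20.02 and 6.22 in MICT1 KO cells. The MICT1 KO values were all below the Scr values, but the gap was narrow and the lowest library stood at 6 reads. The log2 fold change was -0.91 with a 95% interval from -1.88 to 0.05 (adjusted p = 0.0993 from limma-trend), and without MICT1 KO replicate 3 it was -0.41. Myl9 (chromosome 2, from 156775408 to 156781657), a regulatory light chain of smooth and non-muscle myosin II, had a signal of 12.9, 25.03 and 10.2 in Scr cells and of 24.8, 13.7 and 29.0 in MICT1 KO cells. Its groups overlapped at 10 to 28 reads, and the log2 fold change of 0.50 had a 95% interval from -0.46 to 1.46 (adjusted p = 0.374 from limma-trend), so that at this depth a change of 2-fold or more upward could not be told from none. Single libraries moved this value, to 0.85 without Scr replicate 2, 0.81 without MICT1 KO replicate 2, 0.29 without MICT1 KO replicate 3 and 0.24 without Scr replicate 3, and it passed in none of these fits (adjusted p from 0.178 to 0.709, limma-trend).

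**Figure D3:**
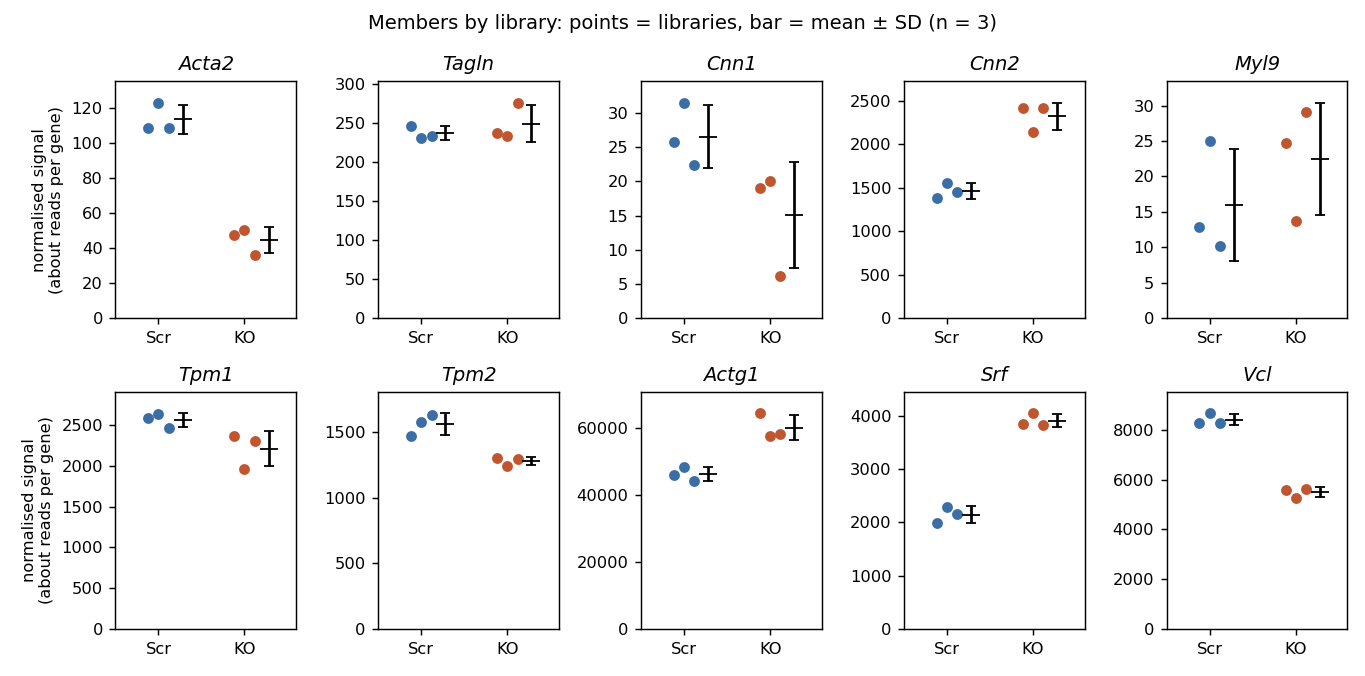
Normalised signal (about reads per gene) of each member in the 3 Scr (blue) and 3 MICT1 KO (orange) libraries, with the mean ± SD (n = 3) as a black bar; each panel has its own linear axis from 0. Acta2, Vcl, Tpm1 and Tpm2 sit lower and Srf, Cnn2 and Actg1 higher in MICT1 KO cells, while the points of Tagln and Myl9 overlap and those of Cnn1 come close.

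Set beside the promoter windows shown above, 3 of the 5 members with an exact CArG box rose (Srf, Actg1 and Cnn2), Vcl fell and Myl9 did not pass. Of the 4 members with a window but no exact box, Acta2, Tpm1 and Tpm2 fell and Cnn1 did not pass. With 1 mismatch allowed, Acta2 moves to the members with a match in the window, through its 2 such forms, and stands there with Vcl as lower. The contrast among so few genes was not tested. Across the table, 157 tested genes had an exact CArG box in a promoter window, of which 54 (34.4%) were higher and 45 (28.7%) lower with an adjusted p under 0.05, with a median log2 fold change of 0.09. Among the 9995 tested genes with any promoter window the shares were 28.4% and 28.6%, and the median was -0.01.

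To compare levels between genes, the signal was divided by the library sum and by exon length (RPKM, GENCODE vM21). The level of Actg1 was 1064 ± 41.3 RPKM (SD, n = 3) in Scr cells and 1389 ± 76.7 (SD, n = 3) in MICT1 KO cells, far above the other members. In Scr libraries Vcl followed at 62.7 ± 1.04, then Srf at 45.4 ± 2.48, Cnn2 at 36.4 ± 1.64, Tpm2 at 32.8 ± 1.45 and Tpm1 at 24.1 ± 0.804 RPKM (SD, n = 3 for each). The smooth muscle type members were low, with Tagln at 7.30 ± 0.381, Acta2 at 3.16 ± 0.191, Myl9 at 0.839 ± 0.403 and Cnn1 at 0.592 ± 0.0973 RPKM in Scr libraries (SD, n = 3 for each). Neighbours in this order did not overlap, except Myl9 and Cnn1.

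In MICT1 KO libraries Srf, at 82.9 ± 2.73 RPKM (SD, n = 3), and Cnn2, at 57.9 ± 3.79, stood above Vcl, at 41.1 ± 1.38. Acta2 had fallen to 1.25 ± 0.208 RPKM (SD, n = 3) and overlapped with Myl9 at 1.19 ± 0.418. The other neighbours kept their order, and Tagln stood at 7.69 ± 0.763 RPKM. Exon length covers all annotated transcripts, which lowers the RPKM of genes with many alternative exons such as Tpm1.

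The smooth muscle isoforms were minor members of their families by level. For 5 families that contain a member, the share of each paralogue in the summed RPKM of its family was compared within each library. The families were chosen with the values known. Two-sided exact permutation tests of 3 against 3 libraries cannot give p below 0.1. The smallest adjusted p over the 21 quantities compared here was 0.124.

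Acta2 made up 0.181%, 0.193% and 0.183% of the actin RPKM in Scr cells and 0.0506%, 0.0593% and 0.0421% in MICT1 KO cells. The actins together went from 1701 ± 46.9 to 2472 ± 122 RPKM (SD, n = 3, exact permutation p = 0.1). Actb, the cytoplasmic β-actin, rose with a log2 fold change of 0.77 (SE 0.056, limma-trend adjusted p = 2.49e-10), and the share of Actg1 went from 62.5% ± 0.925 to 56.2% ± 0.325 (SD, n = 3, exact permutation p = 0.1). Within a library the log2 ratio of Acta2 to Actg1 was -8.40 ± 0.0511 in Scr cells and -10.13 ± 0.248 in MICT1 KO (SD, n = 3). The difference was -1.73, with an exact permutation p of 0.1, the smallest possible, and an adjusted p of 0.133 over 4 ratios. That of Acta2 to Actb differed by -2.12 (exact permutation p = 0.1).

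Among calponins the share of Cnn1 was lower too, but Cnn1 itself did not pass (adjusted p = 0.0993 from limma-trend, 6 to 34 reads). Its share and its ratio to Cnn2 also depend on the paralogues, and Cnn2 rose at 0.66. Cnn1 held 0.822%, 0.947% and 0.740% of the calponin RPKM in Scr cells and 0.311%, 0.372% and 0.108% in MICT1 KO cells. The sum went from 70.5 ± 2.89 to 129 ± 7.75 RPKM (SD, n = 3, exact permutation p = 0.1), most of it Cnn2 and Cnn3. Cnn3 rose with a log2 fold change of 1.07 (adjusted p = 1.65e-11 from limma-trend). The log2 ratio of Cnn1 to Cnn2 was lower by 1.64 in MICT1 KO (-5.95 ± 0.201 in Scr against -7.60 ± 1.01, SD, n = 3, exact permutation p = 0.1), and by 1.06 without MICT1 KO replicate 3.

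Tropomyosin RPKM was mostly Tpm4, at 90.5% ± 0.325 in Scr cells and 92.0% ± 0.171 in MICT1 KO cells (SD, n = 3, exact permutation p = 0.1). Tpm1 went from 3.24% ± 0.0811 to 2.45% ± 0.145 and Tpm2 from 4.42% ± 0.236 to 3.18% ± 0.137 of the family (SD, n = 3). The ratio of Tpm1 to Tpm2 differed little, with a log2 difference of 0.07 (exact permutation p = 0.5), and its groups overlapped. Tagln held 6.66% ± 0.225 of the transgelin RPKM in Scr cells and 6.44% ± 0.531 in MICT1 KO cells, the rest being Tagln2, and these groups overlapped (SD, n = 3, exact permutation p = 0.700). Myl9 held 0.627% ± 0.290 of the regulatory light chain RPKM in Scr cells and 0.712% ± 0.213 in MICT1 KO cells (SD, n = 3, exact permutation p = 0.8), below Myl12a and Myl12b.

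**Figure D4:**
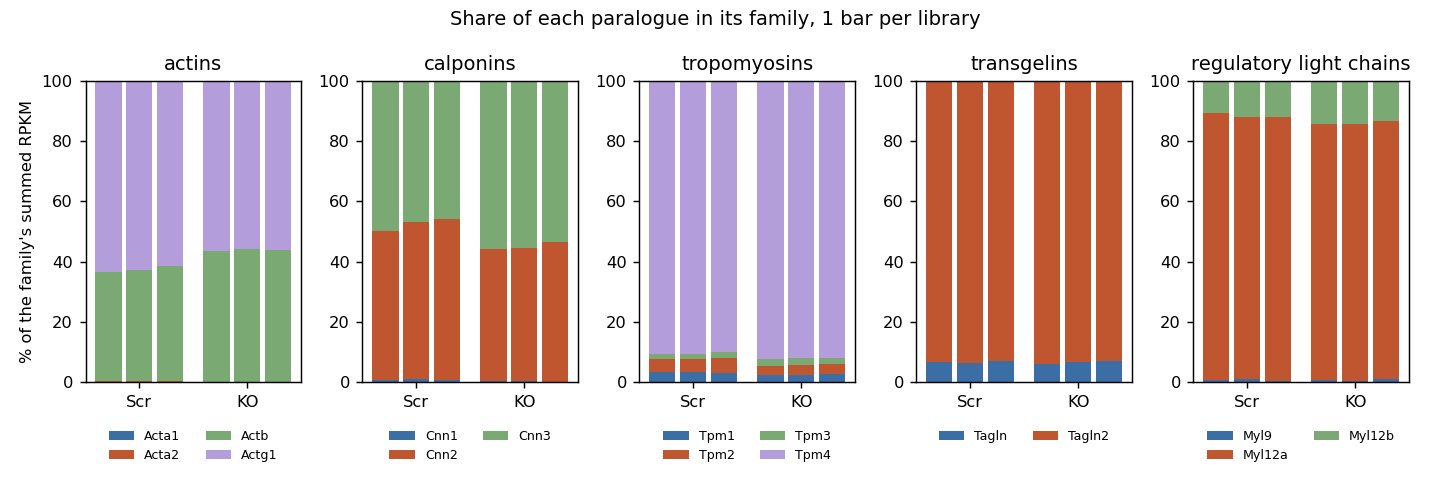
Share of each paralogue in the summed RPKM of its family, as stacked percentages with 1 bar for each of the 3 Scr and 3 MICT1 KO libraries. The share of Actb is higher in MICT1 KO (43.8% against 37.2% on average), as is that of Cnn3, Tpm4 makes up most of the tropomyosins in every library, and Acta2, Cnn1 and Myl9 are too small a share to be seen clearly.

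The partners of Srf differed among themselves. Of 6 cofactor genes tested, 2 passed the threshold as higher and 1 as lower (limma-trend), against 28.5% and 28.3% of all genes. Mrtfa rose from 572, 551 and 507 in Scr to 802, 820 and 793 in MICT1 KO cells, for a log2 fold change of 0.57 (SE 0.084, limma-trend adjusted p = 6.65e-06). Mrtfb did not pass (-0.04, adjusted p = 0.728), and Myocd was not analysed here. Fhl2, a LIM protein that binds Srf and is itself a target, rose with a log2 fold change of 1.33 (adjusted p = 7.53e-11 from limma-trend). Elk4 fell by 0.35 on the log2 scale (adjusted p = 0.00586), while Elk1 (-0.04) and Elk3 did not pass.

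Immediate-early genes of the ternary complex branch were mostly higher, 6 of 9 tested (66.7%), with 1 lower (11.1%) and a median log2 fold change of 0.70. The shares over all genes tested were 28.5% and 28.3%. Ier3 rose most, from 3243, 3709 and 2996 in Scr to 15448, 14211 and 13321 in MICT1 KO cells (2.11, adjusted p = 4.61e-16 from limma-trend). Egr1, a zinc finger transcription factor, followed, from 1908, 1927 and 1688 to 6516, 6046 and 6874 (1.82, adjusted p = 1.38e-15). Fosb went against the others at -0.67 (adjusted p = 0.00346 from limma-trend), with Scr values of 482, 454 and 245 that overlapped with MICT1 KO values of 228, 219 and 263. Several of these genes also respond to cAMP through CREB, and every culture had received forskolin.

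Other contractile and actin filament genes were mostly higher. Of 24 tested, 17 passed the threshold of limma-trend as higher (70.8%) and 3 as lower (12.5%), against 28.5% and 28.3% of all genes tested. The median log2 fold change of these 24 was 0.38. Filip1l, a filamin A interacting protein, rose most at 2.95 (adjusted p = 1.63e-14 from limma-trend), from 149, 165 and 116 in Scr to 1083, 1167 and 1072 in MICT1 KO cells. Synpo2, an actin bundling protein of muscle, rose at 1.65 (adjusted p = 9.90e-05 from limma-trend), at a low level. Its signal was 30.7, 33.4 and 16.3 in Scr cells and 73.4, 83.2 and 91.2 in MICT1 KO cells. With single libraries left out the log2 fold change of Synpo2 ranged from 1.34 to 1.83. The exceptions were Mylk, the kinase that phosphorylates the myosin light chains, at -1.56 (adjusted p = 2.18e-05 from limma-trend), Csrp2 at -0.41 and Csrp1 at -0.32, which encode LIM proteins of the contractile apparatus (adjusted p = 3.17e-05 and 1.39e-04). Mylk fell from 99.9, 83.4 and 132 in Scr to 33.4, 34.8 and 35.2 in MICT1 KO cells, in the direction of Acta2.

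Linkers of focal adhesions, the company of Vcl, were also mostly higher, 12 of 18 tested (66.7%) against 5 lower (27.8%), with a median of 0.34. Over all genes tested, 28.5% were higher and 28.3% lower. Zyx (zyxin) rose from 2620, 3024 and 2725 in Scr to 7638, 7137 and 7228 in MICT1 KO cells, for a log2 fold change of 1.40 (adjusted p = 3.04e-14 from limma-trend), and Flnc (filamin C) rose at 1.30 (adjusted p = 3.11e-10). Vcl thus moved against most of them, together with Tns1 (tensin 1, -2.50, adjusted p = 5.68e-17 from limma-trend), Lims2 (-1.80, adjusted p = 4.68e-08), Ptk2 (focal adhesion kinase, -0.52, adjusted p = 3.07e-07), Lpp (-0.28, adjusted p = 9.32e-04) and Pxn (paxillin, -0.23, adjusted p = 0.00360). Tns1 went from 6038, 5666 and 5460 to 973, 921 and 1146, the largest fall in this list.

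**Figure D5:**
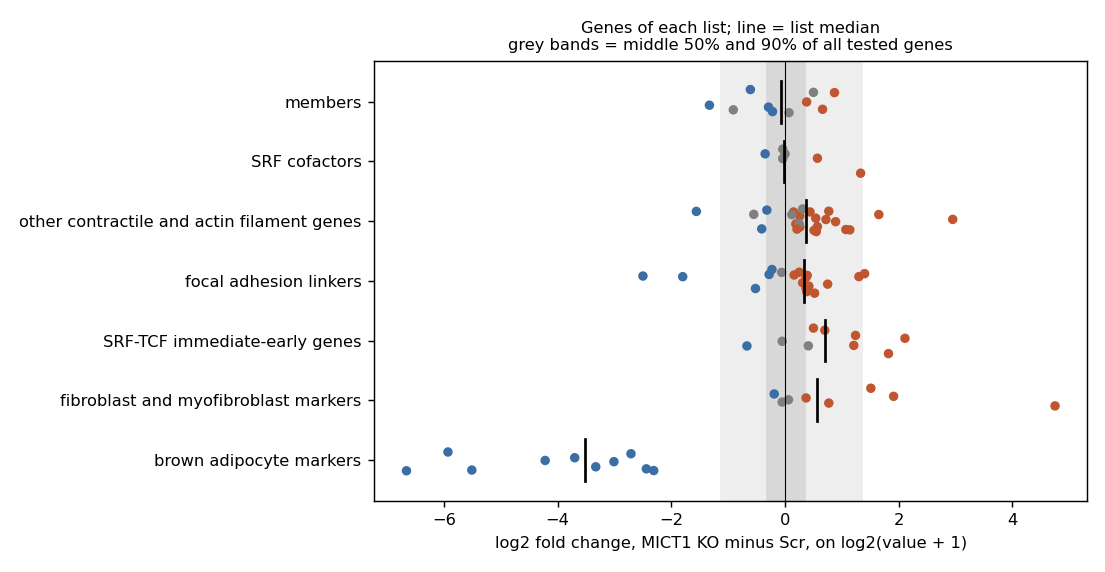
Log2 fold change, MICT1 KO minus Scr, of each tested gene in 7 lists; points are genes (orange higher, blue lower with an adjusted p under 0.05, grey not called), black lines are list medians and the grey bands hold the middle 50% and 90% of all genes tested. The members spread on both sides of 0 with a median of -0.07, and the other contractile genes have a median of 0.38. The list labelled brown adipocyte markers, mostly genes of adipocytes in general, lies on the left with a median of -3.51.

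Cell type markers also differed between the groups. Of 13 markers listed for brown adipocytes, 10 were tested. These 10 were lower (adjusted p under 0.05 from limma-trend), against 28.3% of all genes tested. Most of them are genes of adipocytes in general, and Cidea, Prdm16 and Dio2 were not analysed here. Ucp1 was low in both groups, at 20.8, 24.1 and 30.5 in Scr cells and 1.91, 1.05 and 9.33 in MICT1 KO cells. The summed level of the 10 was 7531 to 9104 CPM (the signal scaled to a common library sum) in Scr cells and 901 to 1308 in MICT1 KO cells. Of 11 fibroblast and myofibroblast markers, 9 were analysed and their summed level was 4583 to 5244 CPM in Scr cells and 10819 to 11857 in MICT1 KO cells. Of these 8 were tested, 5 higher and 1 lower, against 28.5% and 28.3% of all genes tested. Fn1 (fibronectin) rose at 1.91 and Dcn (decorin) at 4.75 (adjusted p = 1.10e-15 and 5.87e-19 from limma-trend). The collagen genes were mixed, as Col1a1 rose at 0.77 (adjusted p = 7.05e-10 from limma-trend) while Col1a2 at 0.06 and Col3a1 at -0.05 did not pass, and Pdgfra was the marker that was lower (-0.19, adjusted p = 0.0347). The part of these differences in the members' results was not tested.

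Markers of other cell types that a culture could hold, mural cells rich in Acta2 among them, were read as well. For mural cells 5 of 9 markers were analysed, at a summed level of 159 to 185 CPM in Scr cells and 193 to 207 in MICT1 KO cells. Among them Cspg4 was lower (-0.92, adjusted p = 1.19e-05 from limma-trend), Pdgfrb and Notch3 were higher (0.48 and 0.76, adjusted p = 4.46e-05 and 2.57e-05), Mcam did not pass, and Rgs5 was below the filter at 5.32 ± 3.67 in Scr cells and 8.67 ± 4.77 in MICT1 KO cells (SD, n = 3). Of 10 skeletal muscle markers, Ttn was analysed, at 0.621 to 0.921 CPM in Scr cells and 0.128 to 0.290 in MICT1 KO cells. Macrophage markers (3 of 8 analysed) summed to 15.4 to 21.9 CPM in Scr cells and 30.0 to 38.2 in MICT1 KO cells. Among them Cd14 was higher (1.24, adjusted p = 2.44e-06 from limma-trend), while Csf1r at 0.29 and Cd68 at -0.23 did not pass (adjusted p = 0.253 and 0.733). The endothelial marker analysed, Cdh5 (1 of 7), stood at 0.368 to 0.725 CPM in Scr cells and 1.59 to 2.03 in MICT1 KO cells.

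Genes whose profile over the 6 libraries was most like that of Acta2, among 9921 other genes with a mean signal of at least 100, were Copz1 (Pearson r = 0.9993), Gm14326 (0.9979) and Ssh1 (0.9978). For Srf they were Slc16a3 (0.9991), Calhm2 (0.9986) and Smim3 (0.9985). A coefficient above 0.99 was reached by 28 genes for Acta2 and 173 for Srf, and these coefficients describe a profile over 6 points dominated by the 2 groups.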

How the data were processed

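RNA-seq of 6 libraries, 3 MICT1 KO and 3 Scr, was analysed from a table of genes. The authors deposited a normalised signal per gene. Per the methods, strand-specific total RNA libraries were sequenced paired-end and aligned to NCBI38/mm10 with Partek software. The submitters' processing notes also name STAR and DESeq2, without versions. The gene annotation and counting model are not given in the sources used here. Between 88.7% and 90.2% of values under 20 were whole multiples (tolerance 0.01) of a step for each library, so the signal was taken as estimated reads over a size factor between 0.949 and 1.08. For Acta2, Tagln, Cnn1 and Myl9 the signal gave whole reads in 6 of 6 libraries (tolerance 0.02). No gene in the table has a 0 in any library.

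Since these are not counts, log2(value + 1) was compared with limma-trend (limma 3.58.1, R 4.3.3) for the 12507 genes that reached a value of 10 in 3 or more libraries, two-sided, with Benjamini-Hochberg adjustment and a threshold of 0.05. The functions were tested on simulated data. RPKM used GENCODE vM21 exon lengths, found for 13137 genes (98.9%), 207 through an older symbol. Positions and promoters come from RefSeq on GRCm38.p6. The members and gene lists were chosen with earlier results of these data known. 1 further list of genes is not reported here. All members were named, with, of every other list but the cell type markers, the 2 largest rises and 2 largest falls that passed, the genes against a list's majority, and Actb, Mrtfa, Mrtfb and Myocd. The 3 genes most like Acta2 and Srf were named also. Elk1, Elk3, the other paralogues and the single markers were named after their values were seen. The alternatives were library-size scaling, no filter, a maximum RPKM of at least 4, pseudocounts of 0.5 and 5, the replicate number as a block, limma-voom and each library left out. Scaling without the ribosomal RNA row Rn45s and shares without length division were added after seeing the data.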

Additional observations from a re-analysis of the deposited data

How the results depend on the processing

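The counts of called genes, for the members, the 4 other lists and all genes, stayed within 1.5 times of those given above under every alternative. With each library left out in turn, 6 to 7 members passed, as did 6383 to 6678 of all genes, 3 cofactors, 18 to 21 contractile genes, 16 to 17 adhesion linkers and 7 immediate-early genes. Of the 415 alternative values for single genes, 411 kept their direction and side of the threshold. The exceptions were Tpm1 without control replicate 2 or MICT1 KO replicate 2, given above, Tagln, at -0.01 without MICT1 KO replicate 3 and up to 0.11 without another library, and Mrtfb, at 0.00 and above 0 without control replicate 1 and down to -0.11 without another. Neither Tagln nor Mrtfb was called in any fit. With a maximum RPKM of at least 4, 7 members were tested and 6 passed, since Acta2, Cnn1 and Myl9 fall below that level. The promoter count was 5 with the exact CArG box and 6 with 1 mismatch. The log2 ratios of paralogues ranged from -1.86 to -1.61 for Acta2 to Actg1, -2.24 to -1.99 for Acta2 to Actb, -1.99 to -1.06 for Cnn1 to Cnn2 and 0.01 to 0.13 for Tpm1 to Tpm2 with each library left out. Without length division the share of Cnn2 among calponins was 46.4% in Scr and 39.7% in MICT1 KO.

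Libraries with the same replicate number did not deviate together (correlations of -0.024, -0.015 and 0.064 across genes), so the number was not taken as a pairing. With the replicate block, 7 members passed, 4 lower and 3 higher, as without it, and 7055 of all genes. Depth limits Cnn1 and Myl9, at 6 to 34 and 10 to 28 reads in a library.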
